A study of Danio rerio with 8 samples.

Results

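The 86 genes described here are rows of a zebrafish eye gene table whose descriptions resemble mobile elements. They were chosen by words in the description (transposase, integrase, retrotransposon, reverse transcriptase, transposable or pol polyprotein), by position on chromosomes 1 to 25 and by a level of 0.5 FPKM or more in 4 or more of the 8 libraries. FPKM is the number of fragments scaled to gene length and library size. Of 37114 rows, 225 matched these words, 201 of them lay on chromosomes 1 to 25, and 86 passed the filter on level. The filter can favour a row that is high in 1 group alone.

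Mobile elements are DNA segments that can insert into other places of a genome. DNA transposons are cut out and pasted by a transposase, and the Tc1-type elements of fish are a large family of this kind. LTR retrotransposons and retroviruses copy themselves through RNA, with a Pol polyprotein that holds the reverse transcriptase and the integrase, and lie between long terminal repeats (LTRs). LINEs, or non-LTR retrotransposons, also use a reverse transcriptase but lack these repeats. Most copies in a genome are broken, and some former transposases now serve as host genes. Animals keep such elements in check by DNA methylation, heterochromatin and, in the germ line, small piRNAs.

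RNA was sequenced from pooled zebrafish eyes, about 40 for each library, at 36 hours post fertilization (hpf). The 4 wild-type (WT) libraries carry titles that begin with AB, and the 4 others are labelled *flrt2* mutant. The titles of these 4 begin with CH and a number, a code that the paper does not explain. The paper calls them *flrt2* knockout, a CRISPR/Cas9 line that it describes by a deletion of 20 bp in *flrt2* in homozygotes. Per the Methods the mutation was bred in the AB background, and crosses of heterozygotes gave the fish of each genotype for the phenotypic analyses. To measure *flrt2* mRNA by RT-qPCR, the paper used offspring of inbred homozygotes. Whether the embryos of these libraries came from crosses of heterozygotes, with the WT as siblings, or from inbred homozygotes is not stated for the RNA. Any difference of descent between the groups cannot be told apart from the *flrt2* genotype. The labels name the tissue as retina and the Methods as eyes, and nothing says that libraries of a group came from separate clutches, so each p measures only the spread between these libraries.

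The targeted gene, *flrt2*, was not lower in the libraries labelled *flrt2* mutant. It had 2.48, 2.33, 2.25 and 2.55 FPKM in WT and 2.90, 3.99, 2.80 and 3.8 FPKM in the libraries labelled mutant, given in the order 12_16, 1_19, 1_8 and 1_8_ysy for WT and 12_16, 1_19, 2_17 and 1_8_ysy for the others, an order kept throughout. The mutant-labelled values all lay above those of WT (p = 0.0286 in a two-sided exact permutation test, which cannot go lower with 4 against 4), but with equal column sums p was 0.0857. In the limma fit used for all rows below it did not pass the test (log2 fold change 0.40, SE 0.154, adjusted p = 0.11). All directions below rest on the labels.

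Library facts that touch the members are few. The deposited FPKM gave whole reads in 100% of values, at 13423932 to 14835885 reads per library, and the members took 0.115% to 0.12% of the reads in WT and 0.108% to 0.144% in the mutant-labelled libraries. Of 16 neural retina and eye field markers, 14 passed the filter and *hmx1* and *hmx4* had no read in any library. By limma 1 of the 14 was higher (*six3a*) and 2 were lower, among them *atoh7*, a gene for a retinal ganglion cell fate factor, at 29.7 ± 6.47 FPKM against 83.6 ± 16.8 FPKM in WT (SD, n = 4 each, limma adjusted p = 0.000634). Of the 7 lens markers 2 were lower (*mipa* and *cryaa*), with a summed 1835 to 3102 FPKM against 1547 to 2931 FPKM in WT, and of 3 tested muscle markers 1 was lower (*ckma*), with 2.91 to 6.92 FPKM against 4.43 to 17.8 FPKM for the 5 in the table. All 4 tested blood markers (of 5 in the table) were lower in the mutant-labelled libraries, with a summed level of 451 to 1175 FPKM against 1407 to 2212 FPKM in WT. The 6 germ line markers all lay below the filter, at a summed 0.544 to 1.21 FPKM in WT and 0.944 to 1.29 FPKM in the others. The part of blood, lens, muscle or other cells in the changes below was not tested, and in bulk RNA fewer cells of a type and less RNA per cell cannot be told apart.

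Of the 86 members, 15 were higher and 9 were lower in the mutant-labelled libraries than in WT (adjusted p under 0.05 from limma), and 62 did not pass the test. Over all 21012 rows tested, 8.28% were higher and 7.37% were lower. Among the members 17.4% were higher and 10.5% lower. The median log2 fold change (log2FC, on the log2(FPKM + 0.5) scale, with its standard error as SE) was 0.02 for the members and -0.01 for all rows, and the members ranged from -2.03 to 2.85. Through 1 group alone 7 members had passed the filter, 4 through the mutant-labelled libraries and 3 through WT, and these had to differ. Among the 79 that passed in libraries of both groups, 11 were higher (13.9%) and 6 lower (7.59%), where 7.19% and 6.52% of all such rows were.

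The members were low in level. Their mean over the 8 libraries had a median of 2.02 FPKM, from 0.383 to 33.6 FPKM, where the median of all tested rows was 3.88 FPKM. Of the 86, 45 had no Ensembl annotation and carry only an ID of the deposited table, so they are named here by their best protein match and position in GRCz11. A best match gives a resemblance, not an identity. Of these 45 unannotated members 11 were higher and 4 lower, and of the 41 annotated members 4 were higher and 5 lower. The 4 members that passed the filter through the mutant-labelled libraries alone were all unannotated. The 3 that passed through WT alone were all annotated, so part of this contrast follows from the choice. Other unannotated rows on chromosomes 1 to 25 were higher in 9.54% and lower in 9.15% of 1289 cases, and other annotated rows in 6.79% and 5.85% of 16501.

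The members fell into 3 classes and 1 single gene by the words of their descriptions. The DNA transposon class held 60 rows, the retroviral or LTR class 16, the reverse transcriptase or LINE class 9, and the telomerase gene *tert* stood alone. A property that the choice did not use was the shape of the row. In 13 of the 16 retroviral or LTR rows the gene length equalled the span on the chromosome, that is, the row was 1 uninterrupted exon. The same held for 5 of 9 reverse transcriptase or LINE rows, 14 of 60 DNA transposon rows and 4.89% of all tested rows. Most of the retroviral or LTR rows were unannotated. Among other rows on chromosomes 1 to 25 the share was 18% of the unannotated and 3.95% of the annotated.

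The retroviral or LTR class stood on the higher side. Of its 16 rows 7 were higher in the mutant-labelled libraries, 0 were lower by limma, and the median log2FC was 0.45, where 8.28% and 7.37% of all tested rows were higher and lower. At an unadjusted p under 0.05, 8 were higher and 1 was lower, beside 3188 and 2934 of all 21012 tested rows. With voom on the recovered reads 7 were higher and 1 was lower, beside 7.17% and 8.58% of all rows. Of the 7 higher by limma, 3 had passed the filter through the mutant-labelled libraries alone, and of the other 13 rows 4 were higher, where 7.19% of all rows that passed in both groups were. Among these 4 was a Pol polyprotein row of chromosome 7 that reached 0.5 FPKM in WT only in library 1_8_ysy, so the 13 rows are not free of the filter's effect. The DNA transposon class had 7 higher and 7 lower rows of 60 with a median of -0.02, and the reverse transcriptase or LINE class had 1 higher and 2 lower rows of 9 with a median of 0.01. The shares of the DNA transposon class were 11.7% in each direction, but 3 of its lower rows had passed the filter through WT alone and had to differ. The higher row of the reverse transcriptase or LINE class had passed through the mutant-labelled libraries alone. No test of the difference between classes was run.

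**Figure D1:**
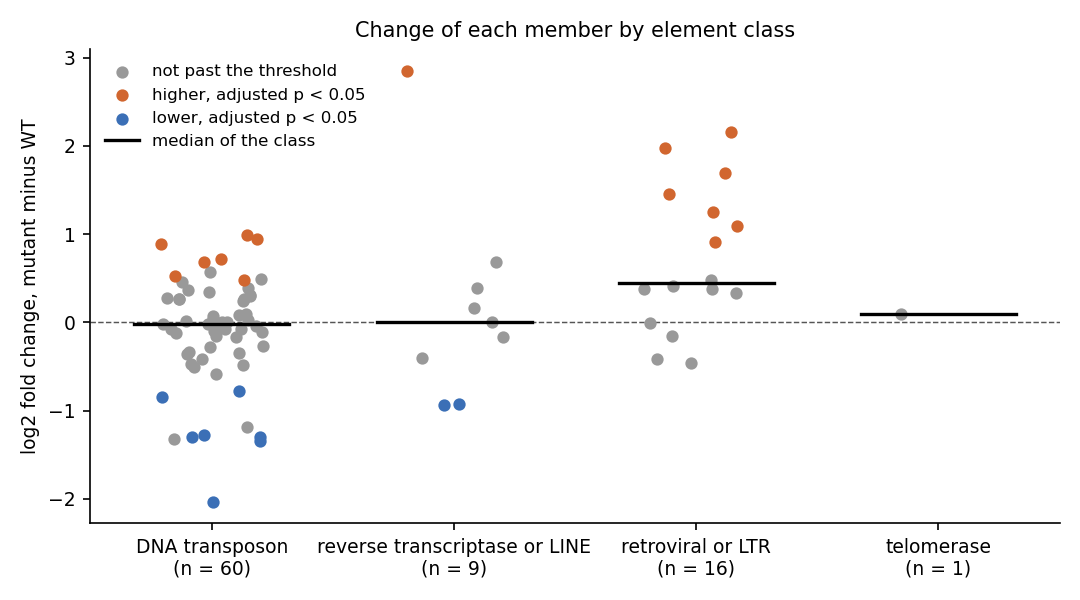
Log2 fold change (mutant-labelled minus WT, on the log2(FPKM + 0.5) scale) of each of the 86 members by element class, with points coloured by the limma call and black lines at the class medians. The 7 orange points of the retroviral or LTR class lie above its median of 0.45, and the DNA transposon class spreads to both sides of a median of -0.02.

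Summed over the class, the 16 retroviral or LTR rows had 13.2, 15.2, 17.4 and 16.2 FPKM in WT and 32.8, 37.0, 27.3 and 32.6 FPKM in the mutant-labelled libraries. The lowest mutant-labelled sum was above the highest WT sum, and the mean was 32.4 ± 3.95 FPKM against 15.5 ± 1.80 FPKM (SD, n = 4 each). The 3 rows that passed the filter through the mutant-labelled libraries alone add to this difference by their choice. Without them the sum over 13 rows was 12.6 to 16.9 FPKM in WT and 23.7 to 31.5 FPKM in the others. This sum still holds 4 rows called higher, so it restates their calls in part. Its largest rises were in a row each on chromosomes 8, 4 and 24. Their means were 0.9, 1.01 and 1.23 FPKM in WT and 5.02, 4.41 and 4.19 FPKM in the others. The 9 rows without a call had a median log2FC of 0.33. The sum of the reverse transcriptase or LINE rows was 24.9 ± 3.68 FPKM in WT and 25.1 ± 2.98 FPKM in the others. The sum of the DNA transposon rows was 274 ± 9.28 and 285 ± 15.5 FPKM. In both of these classes the groups overlapped.

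**Figure D2:**
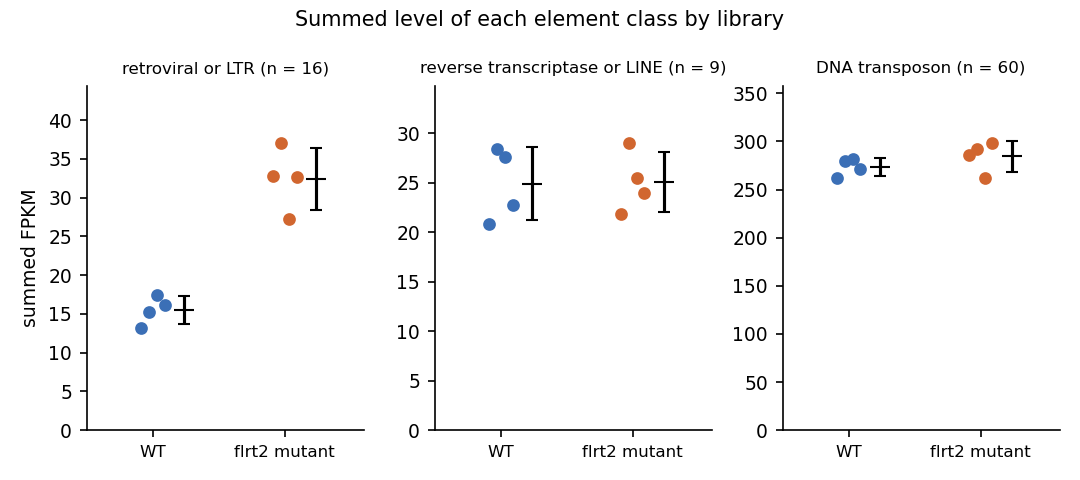
Summed FPKM of the members of each element class in each library (points), with the mean and SD of the 4 libraries of a group (black marks) and every vertical axis from 0. In the retroviral or LTR class the WT libraries lie at 13.2 to 17.4 FPKM and the mutant-labelled libraries at 27.3 to 37.0 FPKM, and in the other classes the groups overlap.

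Of the retroviral or LTR rows 4 best matched the Pol polyprotein of 412, an LTR retrotransposon of Drosophila, and 3 of them were higher. The 412 row on chromosome 12 (chr12:8516885-8526351, minus strand, 1 exon) had 0.274, 0.347, 0.400 and 0.240 FPKM in WT and 3.69, 3.55, 1.95 and 3.68 FPKM in the mutant-labelled libraries. The library 2_17 was the lowest of its group. The row passed the filter through the mutant-labelled libraries alone, so that the groups lie apart follows from its choice. Its mean was 10.2 times the WT mean, with a log2FC of 2.16 (SE 0.210, limma adjusted p = 0.00012).

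The 412 row on chromosome 8 (chr8:28706263-28715400, minus strand, 9138 bases in 1 exon) had 0.965, 1.03, 0.955 and 0.653 FPKM in WT and 4.98, 6.04, 4 and 5.05 FPKM in the mutant-labelled libraries. Its log2FC was 1.97 (SE 0.170, limma adjusted p = 6.34e-05), from 497 reads in WT and 2557 in the others. All 4 mutant-labelled libraries were above all WT libraries, at a mean 5.57 times as high. The nearest other tested row, *srxn1*, lay 157130 bases away and was higher too (log2FC 1.08, limma adjusted p = 0.0154).

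The third, on chromosome 4 (chr4:70499535-70505084, plus strand, 1 exon), had 0.806, 1.02, 1.05 and 1.16 FPKM in WT and 3.92, 5.29, 3.42 and 5.03 FPKM in the mutant-labelled libraries, again with no overlap. Its log2FC was 1.69 (SE 0.175, limma adjusted p = 0.000173). A row 11412 bases away, si:dkeyp-44b5.5, was also higher, by 1.35 (limma adjusted p = 0.00111). The last 412 row (chr14:11477736-11487173) had 0.742, 1.48, 1.23 and 1.22 FPKM in WT and 1.94, 2.36, 0.943 and 1.61 FPKM in the others. There the groups overlapped, and its log2FC of 0.38 did not pass the test (limma adjusted p = 0.328). Whether reads of near-identical copies were shared among these rows or dropped is not given in the sources used here, so a change in 1 row is uncertain as to the copy it came from.

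The other LTR rows that rose matched elements of insects and a retrovirus. A row on chromosome 24 that matched the Pol polyprotein of a retrovirus (chr24:12596757-12601386, plus strand) had 0.840, 0.768, 1.48 and 1.85 FPKM in WT and 5.28, 5.14, 2.90 and 3.46 FPKM in the mutant-labelled libraries. The log2FC was 1.45 (SE 0.255, limma adjusted p = 0.00371), and the groups lay apart, with the WT libraries 1_8 and 1_8_ysy above the other WT libraries. A like row on chromosome 7 (chr7:53147575-53149998, plus strand) had 0.294, 0.277, 0.279 and 0.562 FPKM in WT and 1.07, 0.936, 1.26 and 1.11 FPKM in the others. Its log2FC of 0.91 (limma adjusted p = 0.00674) did not pass the test with the library suffix as a block (adjusted p = 0.073). In WT only 1_8_ysy reached the filter level of 0.5 FPKM, so the filter favoured a difference in this row too.

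The row that matched 17.6, an LTR retrotransposon of Drosophila (chr16:49910231-49919286, minus strand, 9056 bases in 1 exon), was nearly silent in WT. It had 0.0716, 0.0963, 0.0673 and 0.0358 FPKM there and 0.897, 0.956, 0.854 and 0.690 FPKM in the mutant-labelled libraries, or 37 against 429 reads. The log2FC was 1.25 (SE 0.164, limma adjusted p = 0.000736). The row that matched opus, another Drosophila LTR retrotransposon (chr2:41985753-41993814, plus strand), had 0.273, 0.117, 0.0252 and 0.0241 FPKM in WT and 0.856, 0.963, 0.805 and 0.535 FPKM in the others. Its log2FC was 1.09 (SE 0.202, limma adjusted p = 0.00509). Both of these rows passed the filter through the mutant-labelled libraries alone, so their separation follows from the choice. For opus the ratio of means was 7.19 and became 14.3 without the WT library 12_16.

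The 9 retroviral or LTR rows that did not pass the test had log2FCs of -0.46 to 0.48 with a median of 0.33. They included rows that matched Ty3-I of yeast (chr20:51189065-51197669), at 2.36 FPKM in WT and 3.12 FPKM in the others, and Ty3-G (chr19:27471327-27479552), at 1.42 and 1.47 FPKM. The groups overlapped in all 9. The lowest 2 of them are in the class only by the words of their descriptions. *setmar*, whose human counterpart joins a histone methyltransferase to a mariner transposase, had 2.85 ± 0.604 FPKM in WT and 2.05 ± 0.669 FPKM in the others (SD, n = 4 each). The other matched the ORF2 protein of LINE-1. With classes taken from the best protein match alone, an alternative chosen after the data were seen, the class had 15 rows, of which 7 were higher and 0 lower by limma. The row that entered matched the polyprotein of transposon Tf2-7 (chr4:28985798-28986604). It had 1.39 ± 1.02 FPKM in WT and 0.203 ± 0.299 FPKM in the others (SD, n = 4 each), from 68 and 9 reads. Its log2FC of -1.32, the lowest of that class, did not pass the test (limma adjusted p = 0.0691). In that class 1, this row, was lower at an unadjusted p under 0.05 and 0 with voom.

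**Figure D3:**
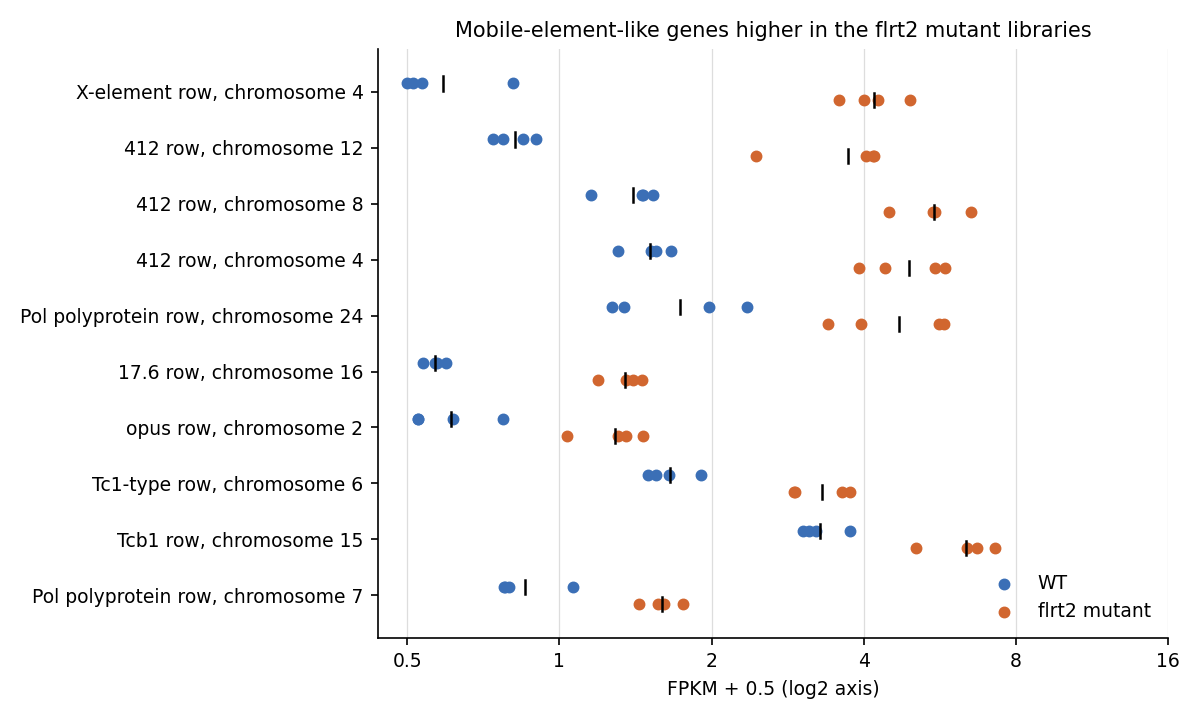
FPKM + 0.5 in each library, on a log2 axis, of the 10 higher members with the largest log2FC, with WT in blue, mutant-labelled libraries in orange and black ticks at the mean of a group. In each of the 10 rows every mutant-labelled library lies above every WT library. For the X-element row, the 412 row of chromosome 12 and the 17.6 and opus rows this follows from the filter. The other rows were picked by their calls in these same libraries, so their separation is largely built in too. Of all 21012 tested rows, 2385 had every mutant-labelled library above every WT library. The rows are in order of log2FC, so that the upper 4 lie farthest apart follows from the order.

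The member with the highest log2FC was in the reverse transcriptase or LINE class, and it passed the filter through the mutant-labelled libraries alone, so it had to differ. A row on chromosome 4 that matched the X-element, a non-LTR retrotransposon of Drosophila (chr4:30863895-30883149, plus strand, 9970 bases over several exons), had 0, 0.310, 0.0339 and 0.0130 FPKM in WT. In the mutant-labelled libraries it had 3.77, 4.45, 3.51 and 3.07 FPKM. WT held 53 reads of it and the others 2060, and the log2FC was 2.85 (SE 0.206, limma adjusted p = 2.62e-05). The WT library 1_19 was the highest of its group, and the ratio of means of 41.5 became 236 without it.

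The nearest tested row to it, si:dkey-11d20.1, lay 83219 bases away and was higher by 2.46 (limma adjusted p = 0.00109). A second X-element row, elsewhere on chromosome 4 (chr4:70457343-70459464, minus strand), moved in the other direction. It had 2.51, 4.20, 1.75 and 2.93 FPKM in WT and 1.02, 1.1, 1.58 and 1.19 FPKM in the mutant-labelled libraries. The groups lay apart by a narrow margin, and the log2FC was -0.92 (SE 0.229, limma adjusted p = 0.0213). The call was lost without WT 1_8_ysy (adjusted p = 0.0572), mutant-labelled 12_16 (0.055) or mutant-labelled 1_19 (0.0578). The row nearest to this second X-element row, 159 bases away, was lower as well (log2FC -0.78, limma adjusted p = 0.0257).

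A row that matched LINE-1 ORF2, the protein with the reverse transcriptase of that element (chr4:66802952-66824331, minus strand), was also lower. It had 2.62, 2.32, 2.81 and 2.41 FPKM in WT and 1.21, 1.45, 0.818 and 0.905 FPKM in the mutant-labelled libraries, with no overlap. The log2FC was -0.94 (SE 0.174, limma adjusted p = 0.00485) and its adjusted p with the suffix as a block was 0.0614. The nearest row, 4656 bases away, was lower as well, by 0.85 (log2FC -0.85, limma adjusted p = 0.0375). The 6 other rows of the class did not pass the test, and *tert*, which makes the telomerase reverse transcriptase, had 7.75 ± 1.63 FPKM in WT and 8.20 ± 0.479 FPKM in the others (SD, n = 4 each, log2FC 0.09, limma adjusted p = 0.723).

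The DNA transposon class was for the most part of the Tc1 type. Of its 60 rows 44 matched Tcb1, Tcb2, Tc1 or Tc3, which are transposases of nematodes, or held only a Tc1-type domain, and of these 5 were higher (11.4%) and 6 lower (13.6%), beside 8.28% and 7.37% of all tested rows. Among the 6 lower rows BX649431.4 and CR753816.1 had passed the filter through WT alone and had to differ. The lowest log2FC on the log2(FPKM + 0.5) scale was in a Tcb1 row on chromosome 18 (chr18:8495205-8500874, plus strand, 5670 bases in 1 exon). It had 8.27, 15.3, 12.6 and 10.4 FPKM in WT and 2.84, 2.84, 1 and 3.75 FPKM in the mutant-labelled libraries, where 2_17 was the lowest. The log2FC was -2.03 (SE 0.306, limma adjusted p = 0.00165). With a pseudocount of 0.1 it was -2.22, and BX649431.4 (-3.11), AL929435.2 (-2.39) and si:dkey-29p23.1 (-2.32), described next, were lower still. The gene *FRMD4A*, 2496 bases away, was lower by 1.05 (log2FC -1.05, limma adjusted p = 0.00105).

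A Tc1 row on chromosome 4, BX649431.4 (chr4:52188449-52189449, minus strand), was detected only in WT. It had 0.734, 0.759, 0.905 and 0.667 FPKM there and no read in any mutant-labelled library, from 45 WT reads in all. Against a floor of 3 reads over the mutant-labelled group it was at least 14.4-fold lower, a bound that covers counting error in that group alone. The row was called lower (limma adjusted p = 0.000462), but it had passed the filter through WT alone and so had to differ. The LINE-1 row 323 bases from it had a log2FC of -0.46 and did not pass the test (limma adjusted p = 0.124).

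Of the other 4 lower rows with an Ensembl annotation, 3 did not match Tcb1. The row zgc:194285 on chromosome 14 (chr14:45596583-45600595), with a Tc1-type domain, had 8.52, 13.8, 13.5 and 12.8 FPKM in WT and 3.10, 6.28, 6.67 and 3.21 FPKM in the mutant-labelled libraries. The groups did not overlap and the log2FC was -1.30 (SE 0.258, limma adjusted p = 0.00701).

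The row si:dkey-29p23.1 on chromosome 4 (chr4:43648421-43676582) matched HARBI1, a nuclease derived from Harbinger transposons. It had 0.909, 1.11, 0.862 and 1.15 FPKM in WT and 0.0464, 0.178, 0.121 and 0.165 FPKM in the mutant-labelled libraries. These were 662 against 77 reads, at a log2FC of -1.27 (limma adjusted p = 0.000834). This row too passed the filter through WT alone, so its groups had to differ. Its span overlaps that of si:dkeyp-53e4.4 on the other strand, and whether their exons overlap was not tested. The zebrafish gene *harbi1* itself, on chromosome 7, had 10.2 ± 1.06 and 9.38 ± 1.36 FPKM (SD, n = 4 each) and did not pass the test (limma adjusted p = 0.612).

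The third, AL929435.2 (chr20:46614805-46694573), a Tcb2 row that overlaps *adcy3b* and *batf* on the other strand, rested on few reads. It had 1.03, 1.49, 1.07 and 2.68 FPKM in WT and 0, 0.655, 0.926 and 0 FPKM in the mutant-labelled libraries, from 30 and 7 reads. Its adjusted p was 0.0453 from limma, and the call was lost without any WT library or without mutant-labelled 12_16 or 1_8_ysy (adjusted p = 0.0606 to 0.117). It was also lost with a pseudocount of 0.1 (0.0696), no filter (0.075), no trend or robust prior (0.0518), rows of chromosomes 1 to 25 alone (0.0503) and voom (0.0666). Without mutant-labelled 2_17 the ratio of means moved from 0.252 to 0.139. The overlap is one of spans, with a length of 315 bases in a span of 79769 bases, and whether exons overlap was not tested. The counting setting for strand is not given in the sources used here. It is therefore uncertain whether reads of *adcy3b* or *batf* were counted for AL929435.2.

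A further 2 Tcb1 rows were lower. CR753816.1 on chromosome 25 had 1.41, 0.940, 0.738 and 0.606 FPKM in WT and 0.448, 0.107, 0.227 and 0.348 FPKM in the others (log2FC -0.85, limma adjusted p = 0.0292), from 36 and 10 reads. It passed the filter through WT alone. The call was lost with the block (adjusted p = 0.0897), with voom (0.0681) and without WT 12_16, 1_19 or 1_8 or mutant-labelled 1_19 or 2_17 (0.0508 to 0.0826). The Tcb1 row on chromosome 13 (chr13:2502416-2506994, plus strand) had 2.50, 1.73, 1.79 and 1.90 FPKM in WT and 0.765, 0.975, 0.932 and 1.07 FPKM in the mutant-labelled libraries (log2FC -0.78, limma adjusted p = 0.0105, 0.080 with the block). In both rows the highest mutant-labelled library lay below the lowest WT library, which for CR753816.1 follows from its choice.

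**Figure D4:**
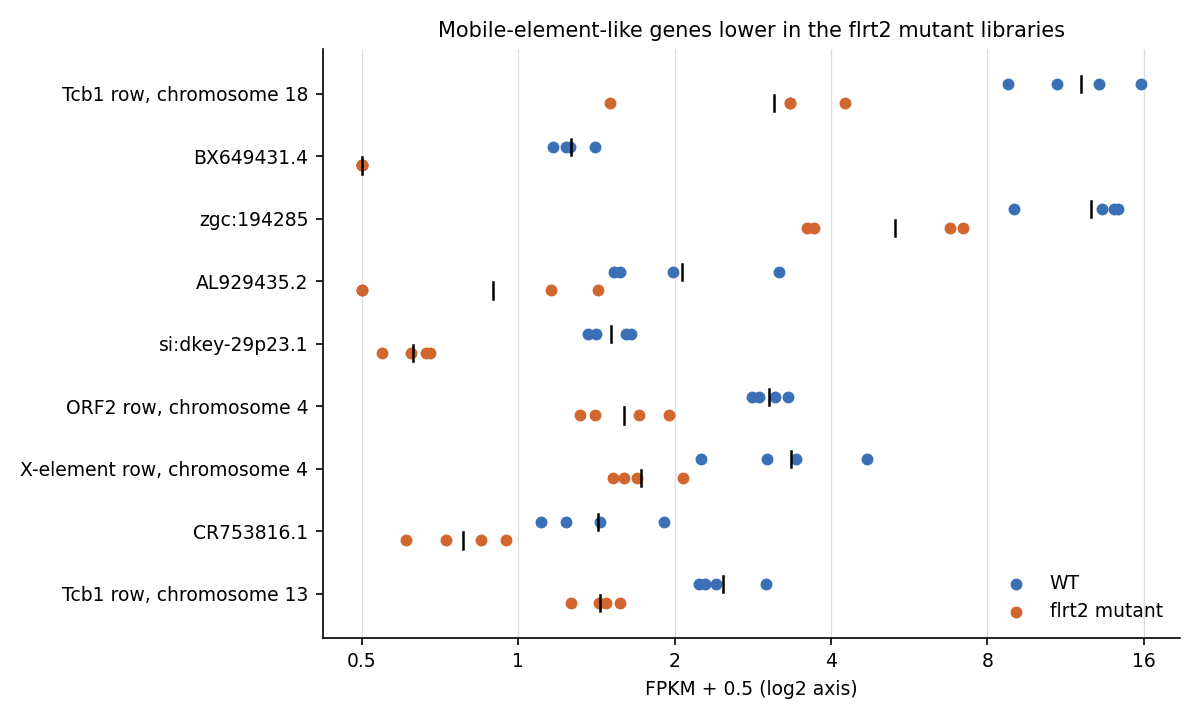
FPKM + 0.5 in each library, on a log2 axis, of the 9 lower members, with WT in blue, mutant-labelled libraries in orange and black ticks at the mean of a group. A value of 0.5 is 0 FPKM, where all 4 mutant-labelled libraries of BX649431.4 lie, and in each of the 9 rows every mutant-labelled library lies below every WT library. For BX649431.4, si:dkey-29p23.1 and CR753816.1, which passed the filter through WT alone, this separation follows from their choice. The other rows were picked by their calls in these same libraries, so their separation is largely built in too. Of all 21012 tested rows, 2050 had every mutant-labelled library below every WT library.

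Of the higher DNA transposon rows, 2 had the largest changes. The Tc1-type row on chromosome 6 (chr6:57622333-57624075, minus strand) had 1.41, 1, 1.05 and 1.15 FPKM in WT and 3.26, 2.41, 2.43 and 3.12 FPKM in the mutant-labelled libraries (log2FC 0.99, limma adjusted p = 0.00277). The Tcb1 row on chromosome 15 (chr15:45520661-45525103, minus strand) had 2.62, 2.54, 3.26 and 2.72 FPKM in WT and 5.92, 6.21, 4.57 and 6.78 FPKM in the others (log2FC 0.95, limma adjusted p = 0.00227). In neither did the groups overlap, and the rows nearest to them, *necab3* and *MB21D2*, did not pass the test.

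Both zebrafish copies of *POGZ* were higher. *POGZ* is a host gene for a chromatin protein with zinc fingers and a domain derived from pogo transposases. *pogzb* (chr16:38119004-38136670) had 2.84, 3.2, 3.77 and 3.10 FPKM in WT and 5.89, 6.61, 4.29 and 5.98 FPKM in the mutant-labelled libraries, at a log2FC of 0.72 (limma adjusted p = 0.0116). *pogza* (chr19:42432625-42456001) had 7.64, 11.9, 11.6 and 12.3 FPKM in WT and 15.8, 16.4, 14.7 and 15.5 FPKM in the others. Its groups lay apart too, but its call (log2FC 0.52, limma adjusted p = 0.0382) was lost with the block (0.0792), with no filter (0.0598), with equal column sums (0.0701), with no trend or robust prior (0.0587) and without WT 1_8 or any 1 of the 4 mutant-labelled libraries (0.058 to 0.0978).

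The other host genes with a symbol did not pass the test. *hmga1b*, for a chromatin protein with AT-hooks whose description carries a Tcb1 match, had 11.5 ± 4.34 FPKM in WT and 11.5 ± 2.41 FPKM in the others. *pgbd4*, derived from a piggyBac transposase, had 5.59 ± 1.25 and 7.28 ± 0.525 FPKM, and *znf576.1* had 12.6 ± 1.33 and 11.3 ± 1.72 FPKM (SD, n = 4 each in all 3). For *pgbd4* every mutant-labelled library was above every WT library, at a log2FC of 0.37 (limma adjusted p = 0.145).

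The members with the highest mean were of the DNA transposon class, and 1 of them changed apart from *pogza*. The highest, wu:fc21g02 on chromosome 1, a Tcb2 match, had 25.4, 33.0, 27.3 and 34.3 FPKM in WT and 29.8, 42.1, 36 and 41.2 FPKM in the mutant-labelled libraries, which overlapped (limma adjusted p = 0.179). CR931802.4 on chromosome 13, a Tcb1 match, had 21.4, 17.9, 20.3 and 18.7 FPKM in WT and 29.7, 28.6, 22.7 and 29.8 FPKM in the others, with 2_17 nearest to WT. Its log2FC was 0.48 (limma adjusted p = 0.0178). The call was lost without WT 1_8_ysy or mutant-labelled 12_16, 1_19 or 1_8_ysy (adjusted p = 0.0503 to 0.0548), and also with equal column sums (0.0768) and with voom (0.15). The row has a length of 360 bases in a span of 47510 bases, and this span overlaps those of *mapk8a* and *ptpn20*. Whether their exons overlap, so that reads could be shared, was not tested. CU459089.1, which lies within *pgbd4* on the same strand, had 13.9 ± 4.28 and 16.4 ± 2.10 FPKM (SD, n = 4 each).

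The last 2 higher members were outside the rule for names and are named after their values were seen. They were si:dkey-235d18.5 on chromosome 20, a Tcb1 match within a region of several overlapping rows, at 2.50 ± 0.310 FPKM in WT and 5.15 ± 1.49 FPKM in the others, and a Tc1-type row on chromosome 1 (chr1:9867120-9872871), at 1.70 ± 0.412 and 2.99 ± 0.183 FPKM (SD, n = 4 each). Their adjusted p was 0.00971 and 0.0208 from limma, and the call of the second was lost with the block (0.0601).

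By chromosome, every one of the 25 held a member, and chromosome 4 held 17. The long arm of zebrafish chromosome 4 is known to be heterochromatic and rich in repeats. Of its 17 members 2 were higher and 4 lower, and on the other chromosomes 13 were higher and 5 lower of 69. On chromosome 4 the higher X-element row had passed the filter through the mutant-labelled libraries alone, and BX649431.4 and si:dkey-29p23.1 through WT alone. These had to differ, as did the 412 row of chromosome 12, the 17.6 and opus rows and CR753816.1 elsewhere. All tested rows of chromosome 4 were higher in 11.2% and lower in 16.9% of 1022 cases, against 6.79% and 5.46% of 16854 on the other chromosomes, so the lower calls of its members stand beside a chromosome with more lower rows. The higher members lay on 13 chromosomes and the lower members on 6. The nearest tested row to each of the 24 called members was called in the same direction for 6, in the opposite direction for 0 and not called for 18 (limma). Over all tested rows 15.6% were called in either direction, and of those on chromosome 4 28.1%. Of the 24 called members, 20 overlapped no other row in span, as did 69 of all 86 members.

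**Figure D5:**
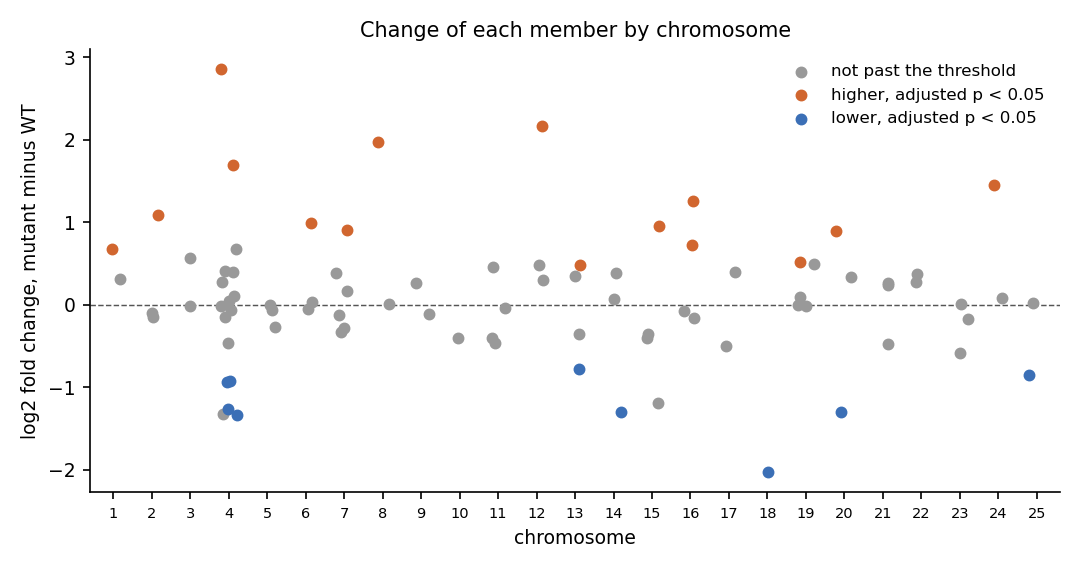
Log2 fold change (mutant-labelled minus WT) of each member by chromosome, coloured by the limma call. Chromosome 4 holds 17 points with calls on both sides of 0, and the other chromosomes hold 1 to 6 points each.

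Rows left out by the rule were counted as well. Of the 24 matching rows off chromosomes 1 to 25, 12 passed the filter, of which 4 were higher and 2 lower by limma, with a median log2FC of 0.44. Over all tested rows 8.28% were higher and 7.37% lower. Rows off these chromosomes were called more often in both directions than rows on them, so the shares over all tested rows understate theirs. Of the 115 matching rows on chromosomes 1 to 25 below the filter, 34 had no read in any library, 55 had reads in both groups, 15 only in WT (at most 27 reads in all) and 11 only in the mutant-labelled libraries (at most 15). The members just inside the filter were the opus row and BX511246.1, whose filter values (the level that at least 4 libraries reached) were 0.535 and 0.556 FPKM. Just outside were a Ty3-I row with 0.0666, 0.138, 0.159 and 0.0951 FPKM in WT and 1.04, 1.01, 0.899 and 0.491 FPKM in the others, and si:dkey-194g4.1 with values of 0.368 to 0.765 FPKM.

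The spread between libraries of a group was like that of other rows. In 68 members, leaving out those lowest and highest in level, the median SD on the log2 scale was 0.262 in WT and 0.279 in the mutant-labelled libraries, and in 13851 other rows of that range it was 0.266 and 0.258. WT 12_16 was the lowest WT library in 37 of the 86 members (33.4% of all rows), and 2_17 was the lowest mutant-labelled library in 36 of 86 (28.7% of all rows).

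Host genes that act on mobile elements were counted in 3 lists. In the list for DNA methylation and heterochromatin, 7 of 34 tested genes were higher and 0 lower by limma (2 lower at an unadjusted p under 0.05, and 1 lower with voom), with a median log2FC of 0.21. The share of higher genes was 20.6% there, beside 8.28% of all tested rows. Of all 21012 tested rows, 7.37% were lower by limma, 2934 at an unadjusted p under 0.05 and 8.58% with voom. *morc2*, an ATPase that serves silencing by the HUSH complex in human cells, had 29.6 ± 2.48 FPKM in WT and 43.6 ± 0.730 FPKM in the others (SD, n = 4 each, log2FC 0.56, limma adjusted p = 0.00245). *zbtb33*, which in mammals encodes the methyl-CpG binding protein Kaiso, rose by a log2FC of 1 (adjusted p = 0.00577). *chaf1b*, a subunit of the histone chaperone CAF-1, rose by 0.79 (adjusted p = 0.0124), and the DNA methyltransferase gene *dnmt3bb.3* by 0.95 (adjusted p = 0.014, all from limma).

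Genes of the CAF-1 complex and DNA methyltransferases also serve dividing cells or development in general. The most abundant gene of that list, *cbx5*, which encodes the heterochromatin protein HP1 alpha, had 147 ± 12.7 and 162 ± 9.84 FPKM (SD, n = 4 each) and did not pass the test. In the piRNA pathway list, 6 of 16 genes in the table passed the filter and 1 was higher, *tdrd6*, a tudor domain gene of germ granules, at 0.151, 0.184, 0.259 and 0.160 FPKM in WT and 1.19, 0.677, 0.679 and 0.560 FPKM in the others (log2FC 0.87, limma adjusted p = 0.013). It passed the filter through the mutant-labelled libraries alone. The RNA helicase gene *ddx39ab* was the most abundant there, at 155 ± 22.1 and 191 ± 33.0 FPKM (SD, n = 4 each).

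In the list for sensing of foreign nucleic acid, 1 of 11 tested genes was higher. A single gene made 9.09% of this list and 16.7% of the piRNA list, beside 8.28% of all tested rows. This was *mxc*, an interferon-induced dynamin-like GTPase gene, at 0.373, 0.661, 0.778 and 0.559 FPKM in WT and 5.19, 1.58, 1.98 and 3.36 FPKM in the others (log2FC 1.59, limma adjusted p = 0.00548). The groups lay apart, with 12_16 the highest. *rnaseh2a*, the most abundant gene of that list, had 59.4 ± 12.4 and 71.3 ± 9.31 FPKM (SD, n = 4 each). In the piRNA and sensing lists 0 genes were lower by limma, at an unadjusted p under 0.05 there were 0 and 1, and with voom there were 0 and 0. With the library suffix as a block the 9 higher calls over the 3 lists became 4, which were 3 in the methylation list, 0 in the piRNA list and 1 in the sensing list.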

How the data were processed

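Eye RNA libraries, 4 WT and 4 labelled *flrt2* mutant, were analysed from 1 table of FPKM values per gene that the authors deposited. Per the labels, reads were aligned with HISAT2 2.0.5 and counted with featureCounts 1.5.0-p3, and the Methods name GRCz11. The Methods and the labels name different library kits. How reads that fit several copies of an element were counted, and whether strand was used, is not given in the sources used here. FPKM times gene length gave whole reads within 1e-06, and intervals and floors cover counting error only. The library size implied by the FPKM was 0.93 (mutant-labelled 2_17) to 1.07 (WT 12_16) times the sum of recovered reads. The deposited values were therefore not scaled by that sum alone.

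Rows with at least 0.5 FPKM in at least 4 libraries were tested on log2(FPKM + 0.5) with limma 3.58.1 in R 4.3.3 (intensity trend, robust prior), with Benjamini-Hochberg adjustment over 21012 rows and calls at an adjusted p under 0.05. Fold changes on this scale understate those of low rows. Steps were tested on simulated data. Voom on recovered reads, other pseudocounts (0.1 and 1), filters (1 FPKM or none), scalings, thresholds, class orders, no trend or robust prior, rows of chromosomes 1 to 25 alone, a block and leaving out each library were alternatives. Figures were drawn in Python 3.11.15 with matplotlib 3.10.9.

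The titles share 3 suffixes between the groups, of unstated meaning. Deviations from group means correlated across genes at r = 0.106 to 0.141 within these 3 pairs, against -0.223 to 0.112 in 13 unlike pairs. These ranges overlap, so the correlations do not settle whether the suffix pairs libraries. The suffix was taken to pair libraries only in the alternative fit with a block, where WT 1_8 and 2_17 have no partner.

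Named were up to 10 called members in each direction by log2 fold change, the 5 of highest mean, the 8 of highest mean with a gene symbol, members with no read in a group, those next to the filter, *flrt2*, and of each host list up to 4 called genes by p and the most abundant. The members and lists were chosen with earlier results of these data known. Rows without an Ensembl annotation are named by best match and position.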

Additional observations from a re-analysis of the deposited data

Results flagged for a closer look

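Among the 68 groups of 4 libraries of the named and called members and *flrt2*, 6 held 1 library apart from the other 3 by Dixon's criterion on the log2 scale, where chance gives about 1 in 20 groups. In WT these were 12_16, low at 8.52 FPKM in zgc:194285 and at 7.64 FPKM in *pogza*, 1_19, high at 0.310 FPKM in the higher X-element row of chromosome 4, and 1_8_ysy, high at 0.562 FPKM in the Pol polyprotein row of chromosome 7. In the mutant-labelled libraries it was 2_17, low at 1.95 FPKM in the 412 row of chromosome 12 and at 22.7 FPKM in CR931802.4.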

How the results depend on the processing

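Of the 24 called members, 19 kept their call in each of the 8 fits that left out 1 library, and 15 kept it in those and in each of the 10 other fits that tested them with other scales, filters, scalings, priors, rows or a block. Among the 15 were the higher X-element row, the 412 row of chromosome 12, the 17.6 and opus rows, BX649431.4 and si:dkey-29p23.1. These had passed the filter through 1 group alone and had to differ by their choice, so their kept calls follow from it in part. Counts of called members without 1 library were 13 to 15 higher and 7 to 10 lower. Of all rows 6.14% to 8.04% were higher and 4.96% to 7.04% lower in these fits. With the library suffix as a replicate block, 12 were higher and 6 lower, all of them among the 24, and 6 calls were lost, while the shares of all rows fell to 5.4% and 4.72%. With equal column sums 13 were higher and 10 lower, and with voom 14 and 9, while the balance of all rows turned, to 6.92% higher against 8.41% lower and to 7.17% against 8.58%. At a filter of 1 FPKM, which leaves 65 members, 12 were higher and 6 lower, beside 8.46% and 7.31% of all rows. Among them 4 retroviral or LTR rows were higher, 4 DNA transposon rows were lower and 2 rows of chromosome 4 were lower. With no filter, 16 of 167 rows were higher and 10 lower, beside 5.32% and 4.61% of all rows. With a log2 fold change beyond 1 also required, 7 members were higher and 5 lower, beside 3.59% and 3.35% of all rows. Under that rule 0 DNA transposon rows were higher, 2 rows of chromosome 4 were lower and 3 genes of the host lists were higher. At a limma adjusted p under 0.01, 11 members were higher and 5 lower, beside 4.12% and 3.47% of all rows. At that threshold 3 DNA transposon rows were higher and 4 lower, and 3 host genes were higher. With DNA transposon words read first in each description, 2 of 5 retroviral or LTR rows and 13 of 78 DNA transposon rows were higher, since most LTR descriptions contain the word transposon. Of all tested rows 8.28% were higher. Over the host lists 4 genes were higher with the block, and 1 was lower with equal column sums and with voom, against 0. For *flrt2* the permutation p was 0.0857 with equal column sums. The cause of these differences was not tested beyond the fewer rows or stricter thresholds that define them. Depth limits the rows with few reads most, such as AL929435.2 with 37 and CR753816.1 with 46 reads over all libraries.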
